A study of Mus musculus with 13 samples.

Results

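Adenylate kinases and the enzymes that turn over adenine nucleotides were followed through 8 genes, Ak1, Ak3, Ak4, Ak5, Ampd2, Ampd3, Adk and Hprt, out of 18193 genes that the array names singly. The members were chosen by gene symbol: every probe set whose single symbol in the platform annotation is one of these genes was taken, 22 probe sets of 45101 on the array. All 22 were assigned by Entrez gene number, from which the symbols were updated, because the older name Ak3l1 has been used for both Ak3 and Ak4. No separate match by symbol was made. RNA came from a single brain hemisphere of each male C3HeB/FeJ mouse, an inbred strain. Creatine-fed mice, 6 in number, had free access for 6 months to a diet holding 1% creatine, while 7 untreated mice had a diet of matched calories and no added creatine. Feeding began at an age of 10 to 12 weeks in both groups, and no transgene or other treatment is named in the labels. The mice are labelled as biological replicates, and each gave a single array.

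Adenylate kinases interconvert ATP, ADP and AMP by moving a phosphate between adenine nucleotides, so that AMP rises when ATP is drawn down. Creatine kinases buffer the same ATP pool with phosphocreatine, which is why creatine feeding raises the question of whether these transcripts differ. AMP deaminases remove AMP by turning it into IMP, adenosine kinase remakes AMP from adenosine, and Hprt salvages hypoxanthine and guanine into IMP and GMP. In brain, adenosine is also a signal that dampens neuronal firing, and adenosine kinase of astrocytes is known for keeping its level low.

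Whole-hemisphere RNA carried the markers of its labelled tissue. All 5 neuronal markers (Snap25, Syt1, Rbfox3, Stmn2, Nefl) and all 5 astrocyte markers lay above the median of every array. Summed intensity of the 6 measured cortex markers ran from 4153 to 4526 in creatine-fed mice and from 3241 to 4191 in untreated mice, with all 6 means higher in creatine-fed mice. That of the 4 oligodendrocyte markers ran from 12312 to 14344 in creatine-fed mice and from 14020 to 17714 in untreated mice, with all 4 means lower. Endothelial markers summed to between 792 and 926 in creatine-fed mice and between 907 and 1067 in untreated mice, and microglial markers to between 1716 and 1857 in creatine-fed mice and between 1536 and 1877 in untreated mice. The 7 cerebellar markers summed to between 5907 and 13826 in creatine-fed mice and between 2438 and 17839 in untreated mice. The 5 measured brainstem markers summed to between 88 and 215 in creatine-fed mice and between 118 and 391 in untreated mice, and the 5 olfactory bulb markers to between 209 and 396 in creatine-fed mice and between 221 and 894 in untreated mice, with all means of both lists lower in creatine-fed mice. Markers of skeletal muscle, a tissue rich in Ak1 and Ampd1, summed to between 121 and 154 in creatine-fed mice and between 116 and 414 in untreated mice. The 3 measured red blood cell genes summed to between 60 and 193 in creatine-fed mice and between 74 and 166 in untreated mice. Globin probe sets shared between genes were left out, those of Hbb-bs and Hbb-bt among them, so this sum reads blood content only in part. No measured gene of these lists was listed at 0 on any array. Creatine-fed replicate 2 and untreated replicate 3 stood apart in earlier work on these arrays and were kept; without both, no member probe set passed either, the Ampd2 and Ak5 differences described below being -0.37 and 0.26. In such bulk RNA, fewer cells of a type and less RNA per cell cannot be told apart.

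Promoter windows of the members are shown first, and the printed stretches, of Ampd2 and Hprt, were picked after the values had been seen. RefSeq's table (build GRCm38.p6) held windows of 300 bases, running from 250 bases before to 50 after a gene's start, for 7 of the 8 members, Ak5 being the one without an entry. The GC box letters GGGCGG, searched on both strands, were found in 10 of the 17 windows of these genes (58.8%), those of Ampd2, Ak4, Adk, Ak3 and Hprt, and in 35.7% of all 32851 windows in the table. The letters TATAAA were found in 1 of the 17 (5.88%), a window of Ak1, and in 13.6% of all windows. The windows of Ampd2 overlap, as do those of Ak4 except the last, since these starts lie close together. The other member windows do not overlap. Ampd2 had the widest group difference among the member probe sets at 1438941_x_at, while its other probe set, 1426757_at, went the opposite way. Hprt had the steadiest level. Below are the 250 bases before a start of Ampd2 (chr3:108085403-108085652, minus strand) and of Hprt (chrX:52987828-52988077, plus strand). Each runs 5′ to 3′ on the gene's own strand, with matches to GGGCGG or its complement in capitals.
Ampd2: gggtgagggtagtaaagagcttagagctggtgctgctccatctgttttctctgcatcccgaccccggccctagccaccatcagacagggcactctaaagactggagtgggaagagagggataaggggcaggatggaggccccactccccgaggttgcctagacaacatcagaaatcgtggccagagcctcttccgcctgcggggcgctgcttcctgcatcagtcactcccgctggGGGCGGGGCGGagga
Hprt: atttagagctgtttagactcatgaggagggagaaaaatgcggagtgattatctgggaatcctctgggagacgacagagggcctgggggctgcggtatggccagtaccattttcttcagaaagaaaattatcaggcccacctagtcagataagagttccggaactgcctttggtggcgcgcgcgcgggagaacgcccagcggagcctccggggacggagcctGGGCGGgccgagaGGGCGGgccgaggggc
In the Ampd2 stretch the 2 matches overlap by a base close to the start, and the Hprt stretch also holds 2. Nothing measured here reads which start was used, and a relation of these letters to the levels was not tested.

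No member probe set passed the threshold, an adjusted p under 0.05 over all 45037 probe sets that are not controls, when creatine-fed mice were set against untreated ones. Across the array 4 probe sets passed, 0.00888% of those tested. Values are intensities as deposited, and differences are creatine-fed minus untreated on the scale of log2(intensity + 16), fitted with limma. At an unadjusted p under 0.05, 4 of the 22 member probe sets differed (18.2%), 3 lower and 1 higher, where 11.9% of all probe sets did, 7.7% lower and 4.17% higher. Mean log2 values were higher in creatine-fed mice at 9 of the 22 and lower at 13, where 42.2% of all probe sets were higher and 57.8% lower. The median difference was -0.02 over the 8 brightest member probe sets, 1 per gene, and -0.03 over the brightest probe sets of all 18193 genes. Of the 22, 15 were among the 22516 brighter probe sets of the array and lay above the array median in every mouse. The other 7 were dim, 6 of them below the median of every array.

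**Figure D1:**
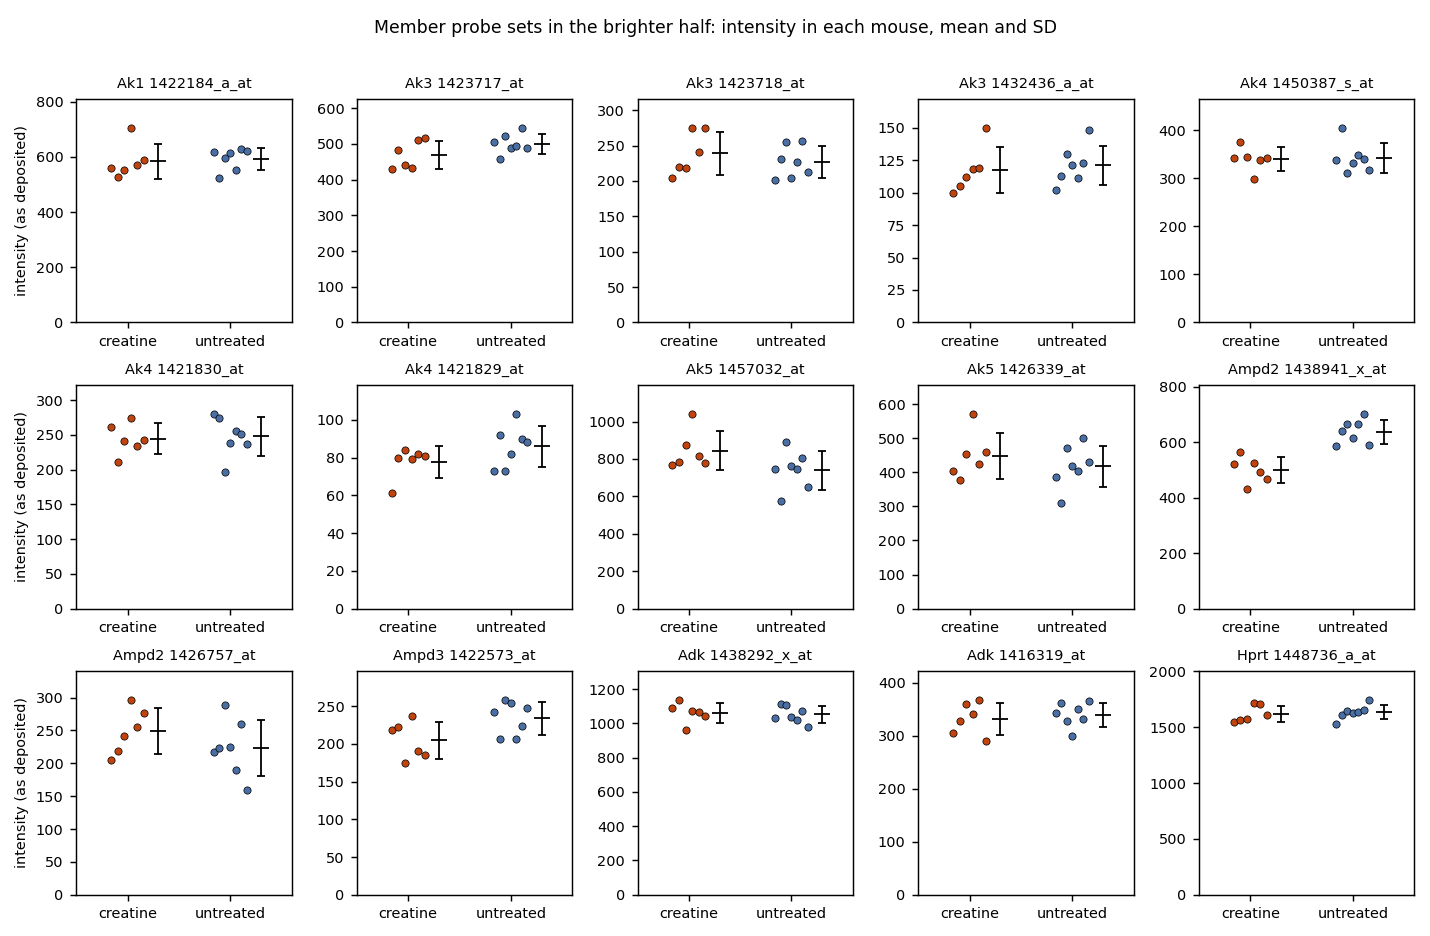
Intensity as deposited (vertical axis, linear, from 0) of the 15 brighter member probe sets, a panel each; each point is a mouse, creatine-fed (orange, left) or untreated (blue, right), and the bar gives mean and SD. The groups overlap in every panel but that of Ampd2 1438941_x_at, where creatine-fed mice lay between 432 and 565 and untreated mice between 587 and 702.

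Ak1, the cytosolic adenylate kinase of brain, muscle and red cells, had intensities of 528, 565 and 705 (lowest, median and highest) in creatine-fed mice and 525, 613 and 629 in untreated mice at probe set 1422184_a_at. The groups overlapped almost fully, and the highest value of all came from a single creatine-fed mouse, replicate 4. Means were 584 ± 62.6 (SD, n = 6) in creatine-fed mice and 593 ± 39.4 (SD, n = 7) in untreated mice, a log2 difference of -0.03 with a 95% confidence interval of -0.19 to 0.14. The other Ak1 probe set, 1423988_at, was dim, at 17.0 ± 3.52 in creatine-fed mice and 19.4 ± 2.99 in untreated mice. The muscle and blood sums given above were low in most mice, the blood sum without the shared globin probe sets. The part of muscle and blood in the Ak1 values was not tested.

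Ak3, the adenylate kinase of the mitochondrial matrix that uses GTP to phosphorylate AMP, was read by 3 probe sets that did not point one way. At the brightest, 1423717_at, creatine-fed mice had 431, 461.5 and 518 (lowest, median and highest) and untreated mice 458, 495 and 545, a log2 difference of -0.09 (interval -0.24 to 0.05). At 1423718_at the means were 239 ± 30.4 in creatine-fed mice and 227 ± 22.4 in untreated mice, a log2 difference of 0.07. At 1432436_a_at they were 117 ± 17.6 in creatine-fed mice and 121 ± 14.9 in untreated mice, a log2 difference of -0.04. Every one of these intervals held 0, and the groups overlapped at all 3.

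Ak4, a matrix relative of Ak3 that binds nucleotides and has weak kinase activity, was flat at its brightest probe sets. At 1450387_s_at creatine-fed mice had 299, 342 and 375 (lowest, median and highest) and untreated mice 311, 339 and 405, a log2 difference of -0.01 (interval -0.16 to 0.15). At 1421830_at the means were 244 ± 22.3 in creatine-fed mice and 248 ± 27.8 in untreated mice (-0.02, interval -0.20 to 0.17). At 1421829_at all 6 creatine-fed values, 61 to 84, were under the untreated mean, with an untreated range of 73 to 103, yet the difference of -0.12 had an interval of -0.30 to 0.07. The dim probe set 1438395_at went the other way, with 6 to 17 in creatine-fed mice and 1 to 14 in untreated mice (log2 difference 0.33, unadjusted p = 0.0316, adjusted p = 0.37 by limma). It lay below the median of every array, as did the fifth Ak4 probe set, 1421831_at. The files used here give no detection call for such values.

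Ak5, an adenylate kinase largely restricted to brain and built from a pair of kinase domains, had higher means in creatine-fed mice at both probe sets, without passing. At 1457032_at creatine-fed mice had 768, 800.5 and 1040 (lowest, median and highest) and untreated mice 575, 746 and 889. The untreated mean of 739 was exceeded by all 6 creatine-fed mice, but 2 of the 7 untreated mice lay within the creatine-fed range. The means were 844 ± 104 (SD, n = 6) in creatine-fed mice and 739 ± 102 (SD, n = 7) in untreated mice, a log2 difference of 0.19 ± 0.10 (SE; interval -0.03 to 0.41; adjusted p = 0.493 by limma). At 1426339_at the means were 448 ± 67.8 in creatine-fed mice and 417 ± 61.5 in untreated mice, a difference of 0.10 (interval -0.14 to 0.34).

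Among the pairs of brighter probe sets of a single member gene, the pair of Ak5 varied together across mice most closely. With the group means taken out, Pearson's r was 0.84 over the 13 mice (permutation p = 0.00177, 0.0159 adjusted over 9 pairs) and Spearman's rho 0.66 (permutation p = 0.021, adjusted 0.0946). Without the 2 mice farthest from the median, creatine-fed replicate 4 and untreated replicate 2, r was 0.62. The other 8 pairs, of Adk, Ak3, Ak4 and Ampd2, had r between -0.28 and 0.55, none of them past 0.05 after adjustment. Ak5 also differed more between mice of a group than most members. Its highest untreated value, 889, came from replicate 3, whose cerebellar markers summed to 2438, the lowest of all mice, and its lowest, 575, from replicate 2, whose cerebellar sum of 17839 was the highest.

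Across the 13 mice, with group means taken out, Ak5 at 1457032_at had r = -0.74 with the log2 cerebellar sum (permutation p = 0.00364, 0.0582 after adjustment over 16 such relations) and rho = -0.69 (permutation p = 0.0152, adjusted 0.244). Without creatine-fed replicate 4 and untreated replicate 3, the mice farthest from the median of that sum, r was -0.51. With the cortex sum r was 0.70 (permutation p = 0.0132, adjusted 0.106) and rho 0.56 (permutation p = 0.066, adjusted 0.264), and r was 0.36 without untreated replicates 2 and 3. The cortex sum was itself higher in creatine-fed mice, as given above. How far the share of cortex or cerebellum in a hemisphere enters the Ak5 difference was not tested. The genes most like Ak5 across the 13 mice, among 11148 genes in the brighter range, were Slc1a1, a neuronal glutamate transporter (r = 0.98), and Pde2a, a cyclic nucleotide phosphodiesterase (r = 0.97), each picked as the highest of many.

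The AMP deaminase Ampd2 held the widest difference among the member probe sets, and its 2 probe sets went opposite ways. Ampd2 is an AMP deaminase isoform of brain and other tissues. At its brightest probe set, 1438941_x_at, creatine-fed mice had 523, 565, 432, 526, 494 and 469 in replicates 1 to 6, and untreated mice had 587, 641, 667, 615, 667, 702 and 591 in replicates 1 to 7. Every creatine-fed mouse lay below every untreated mouse, a separation shown by 1 of the 22 member probe sets (4.55%) and by 0.56% of all probe sets. Means were 502 ± 47.0 (SD, n = 6) in creatine-fed mice and 639 ± 43.1 (SD, n = 7) in untreated mice. The log2 difference was -0.34 ± 0.07 (SE; interval -0.50 to -0.18), a ratio of 0.789, with an unadjusted p of 3.68e-04 and an adjusted p of 0.131 by limma over all probe sets.

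The Ampd2 call depended on the set of probe sets fitted and on the variance model. Among the 22516 brighter probe sets fitted alone, adjusted p was 0.0436, where 137 probe sets (0.608%) passed, and with limma's trended and robust variance it was 0.0178, where 161 (0.357%) did. Over all 23 alternatives it ran from 0.0178 to 0.301, those 2 being the ones under 0.05, and the difference kept its sign throughout, from -0.38 to -0.29. The suffix _x_at is the manufacturer's mark for probe sets with probes that can also match other transcripts. Of the 2441 probe sets with this suffix, 1.11% had groups that did not overlap.

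The other Ampd2 probe set, 1426757_at, had intensities of 205, 219, 241, 296, 256 and 277 in creatine-fed replicates 1 to 6 and of 217, 224, 289, 225, 190, 260 and 160 in untreated replicates 1 to 7. The groups overlapped, and the lowest value was that of untreated replicate 7. Means were 249 ± 34.5 in creatine-fed mice and 224 ± 42.5 in untreated mice, a log2 difference of 0.16 (interval -0.11 to 0.42; adjusted p = 0.665 by limma). With the mean of both probe sets standing for the gene, the log2 difference was -0.09 (adjusted p = 0.691 by limma). The direction for Ampd2 therefore rested on which probe set was read. The marker lists of cortex and microglia, with every mean higher in creatine-fed mice, also leaned one way by group. So did those of oligodendrocytes, brainstem, olfactory bulb and skeletal muscle, with every mean lower. Most brainstem and skeletal muscle genes were dim, with 2 and 1 of 5 measured in the brighter range. No marker gene passed the threshold and the sums overlapped. The part of these lists in the Ampd2 values was not tested.

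**Figure D2:**
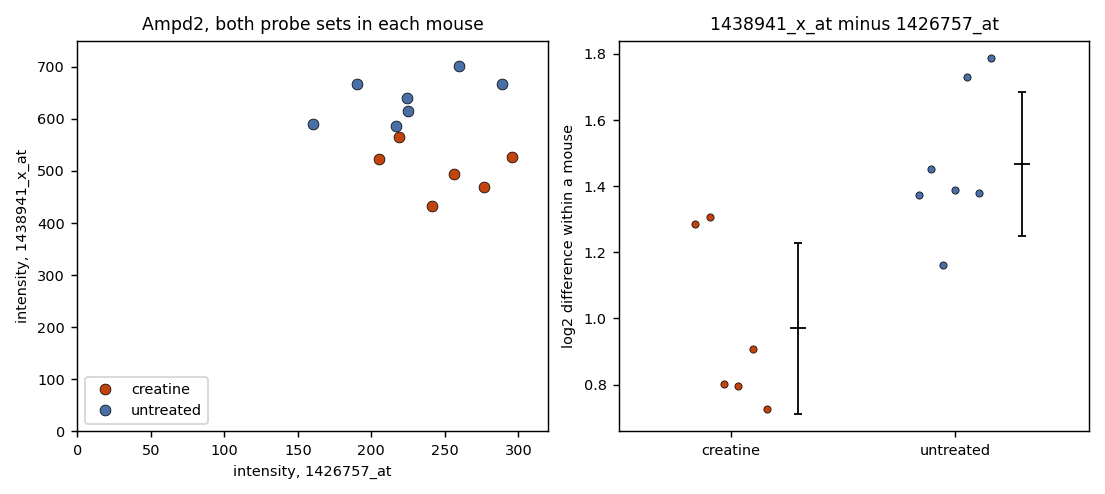
Left, intensity of Ampd2 at 1426757_at (horizontal) and 1438941_x_at (vertical), both linear from 0, a point per mouse, creatine-fed orange and untreated blue. Right, log2 at 1438941_x_at minus log2 at 1426757_at within each mouse, with mean and SD; creatine-fed mice had 0.73 to 1.31 and untreated mice 1.16 to 1.79.

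Within each mouse, the log2 value at 1438941_x_at exceeded that at 1426757_at by 0.97 on average in creatine-fed mice and by 1.47 in untreated mice. Creatine-fed mice ranged from 0.73 to 1.31 and untreated mice from 1.16 to 1.79, so that the groups overlapped slightly. The difference of -0.50 ± 0.13 (SE) had an adjusted p of 0.0671 by limma over 13863 pairs of brighter probe sets of single genes, of which 143 (1.03%) passed. None of the other 8 pairs of the members passed either, with adjusted p from 0.375 to 0.969. This test was added after the values had been seen. The 2 Ampd2 probe sets hardly varied together, with r = 0.19 over the 13 mice (permutation p = 0.533) and rho = 0.28 (permutation p = 0.378), or r = 0.37 without creatine-fed replicates 2 and 3. The genes most like 1438941_x_at, picked as the highest of 11148 compared, were Dnpep (r = 0.88) and H2-D1 (r = 0.85). Both were at probe sets with the same _x_at suffix, which 3.54% of those compared carried. Among the members' brightest probe sets, that of Ampd2 went with that of Adk, also an _x_at set (r = 0.79, permutation p = 0.00332, 0.0465 adjusted over 28 pairs; rho = 0.73, permutation p = 0.0097, adjusted 0.136; r = 0.59 without creatine-fed replicates 2 and 3).

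Ampd3, the AMP deaminase isoform known from red blood cells, was read by a single probe set, 1422573_at. Creatine-fed mice had 175, 204.5 and 237 (lowest, median and highest) and untreated mice 206, 243 and 258. The groups overlapped between 206 and 237, and the untreated mean exceeded 5 of the 6 creatine-fed values. Means were 205 ± 24.2 (SD, n = 6) in creatine-fed mice and 234 ± 21.9 (SD, n = 7) in untreated mice, a log2 difference of -0.18 ± 0.08 (SE; unadjusted p = 0.0486, adjusted p = 0.417 by limma). The red blood cell sums given above, without the shared globin probe sets, overlapped fully between groups. Alas2, which made up most of these sums on average, had a higher mean in creatine-fed mice (log2 difference 0.12). The other measured blood genes, both dim, were lower in creatine-fed mice, as Ampd3 was. Their log2 differences were -0.34 for Slc4a1 (unadjusted p = 0.00725, adjusted p = 0.253 by limma) and -0.32 for Hba-a1. The sums therefore do not show that blood content was alike between groups. The part of blood in the Ampd3 values was not tested.

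Adk, adenosine kinase, was even across groups where it was bright. At 1438292_x_at creatine-fed mice had 963, 1069.5 and 1135 (lowest, median and highest) and untreated mice 980, 1040 and 1112, a log2 difference of 0.01 (interval -0.11 to 0.14). At 1416319_at the means were 332 ± 29.7 in creatine-fed mice and 340 ± 22.5 in untreated mice (-0.03, interval -0.19 to 0.12). These intervals bound any change of the bright Adk signals to within 0.19 on the log2 scale in either direction. The remaining 4 of its 6 probe sets were dim, with means under 40 in both groups. One of these, 1421767_at, had 7 to 21 in creatine-fed mice and 14 to 27 in untreated mice, a log2 difference of -0.32 (unadjusted p = 0.0092, adjusted p = 0.265 by limma). That probe set lay below the median of every array.

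Hprt, the X-linked salvage enzyme often used as a reference in expression assays, was the steadiest member. Creatine-fed mice had 1548, 1591.5 and 1713 (lowest, median and highest) and untreated mice 1528, 1639 and 1742. Means were 1620 ± 71.5 in creatine-fed mice and 1635 ± 63.4 in untreated mice, a log2 difference of -0.01 with an interval of -0.13 to 0.11, or a ratio of 0.991 with an interval of 0.912 to 1.08. The coefficient of variation over all 13 mice was 3.98%. Its SD of 0.06 on the log2 scale was undercut by 0.982% of the 22516 brighter probe sets, and by 5.09% of the 1198 probe sets whose mean lay within 1.5-fold of its own.

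**Figure D3:**
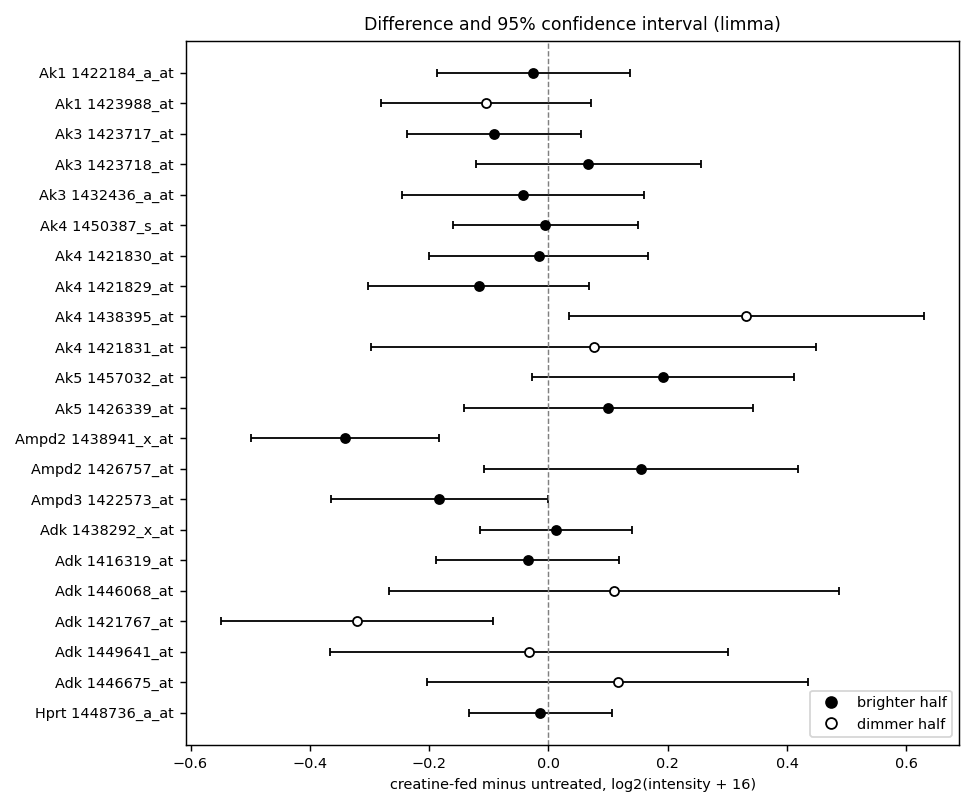
Difference between creatine-fed and untreated mice on the scale of log2(intensity + 16) (horizontal), with its 95% confidence interval, for all 22 member probe sets (vertical); filled points are probe sets among the brighter 22516, open points dimmer ones. The intervals of Ampd2 1438941_x_at, Ampd3, and the dim Adk 1421767_at and Ak4 1438395_at leave out 0, unadjusted for the number of probe sets tested.

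Other genes often used as references gave a scale for this steadiness. Of 9 measured, Pgk1 (SD 0.05) and Rplp0 (SD 0.06) varied slightly less than Hprt on the log2 scale over the 13 mice and Sdha (SD 0.07) slightly more, while Actb and Tbp had 0.14. Of the members, Adk came next at 0.07, then Ak3 and Ak4 at 0.11 and Ak1 at 0.11, while Ampd3 had 0.17, Ak5 0.20 and Ampd2 0.21 against a median of 0.16 over the brighter probe sets. These SDs hold the difference between the groups: within groups the pooled SD was 0.11 for Ampd2, 0.12 for Ak1, 0.14 for Ampd3 and 0.19 for Ak5. None of the 9 reference genes passed. Tfrc, the transferrin receptor, was lower at an unadjusted p of 0.0200 by limma (630 ± 27.4 in creatine-fed mice and 702 ± 34.6 in untreated mice, log2 difference -0.15). Its groups did not overlap, with 583 to 654 in creatine-fed mice and 656 to 764 in untreated mice. The same held for 0.649% of all genes at their brightest probe sets. Of the 3 Tfrc probe sets 1 was higher and 2 lower.

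**Figure D4:**
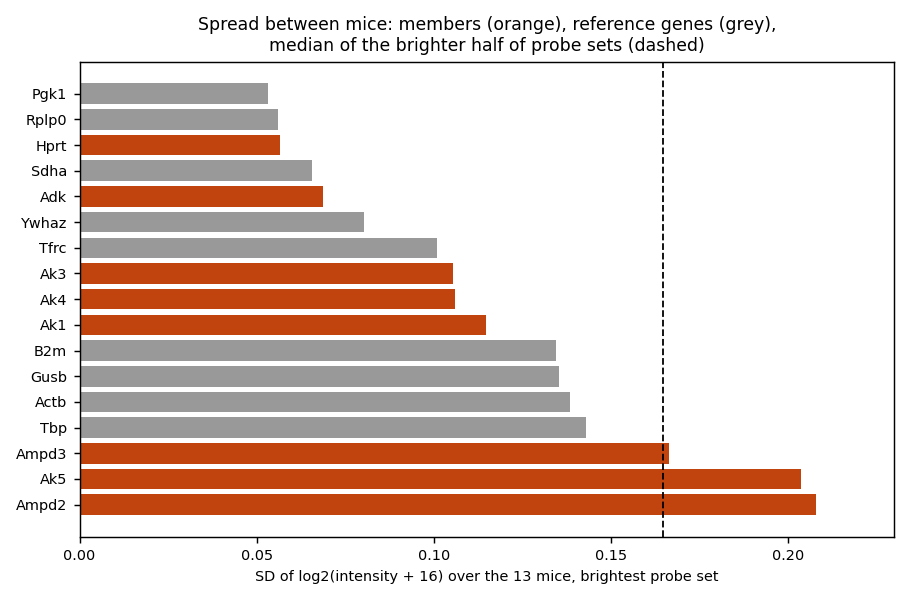
SD over the 13 mice of log2(intensity + 16) (horizontal, from 0) at the brightest probe set of each member (orange) and of each reference gene (grey), in order; the dashed line is the median of the 22516 brighter probe sets, 0.16. Hprt stands near the low end beside Pgk1 and Rplp0, and Ampd3, Ak5 and Ampd2 stand at the high end; the SD holds the difference between the groups.

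The members' brightest probe sets formed 28 pairs, of which 2 varied together across mice with an adjusted p under 0.05 for r, group means taken out. Besides Ampd2 and Adk, these were Ak1 and Ak4, which ran opposite to each other (r = -0.83, permutation p = 0.00155, adjusted 0.0434; rho = -0.83, permutation p = 0.00306, adjusted 0.0857). Creatine-fed replicate 4 had the highest Ak1 and the lowest Ak4 (299) of all mice, and untreated replicate 2 the lowest Ak1 (525) and the highest Ak4 (405). Without those mice r was -0.68. Their cerebellar sums, 5907 and 17839, were the second lowest and the highest. Over the 13 mice, Ak4 had r = 0.66 with the log2 cerebellar sum (permutation p = 0.0526, adjusted 0.28 over 16 relations). Ak1 had r = -0.44 with it (permutation p = 0.117, adjusted 0.467). The part of the cerebellar share in the relation of Ak1 and Ak4 was not tested. The genes most like each of the remaining members were Klhl29 (r = 0.93) and Hrh3 (0.91) for Ak1, Me3 and Medag (both 0.87) for Ak3, D5Ertd579e (0.94) and Gmppa (0.89) for Ak4, H2aj and Glis2 (both 0.88) for Ampd3, Myo19 (0.89) and Fxyd5 (0.88) for Adk, and Reep1 (0.92) and Sf3b1 (0.88) for Hprt. Each was picked as the highest of 11148 genes over 13 mice, a choice that by itself yields high r.

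Around the members, 63 genes of the same pathways were measured, each at its brightest probe set, and none passed, where 0.0055% of all genes did so. At an unadjusted p under 0.05, 2 were higher and 4 lower, together 9.52% of the 63, where 11.2% of all genes differed, 3.58% higher and 7.61% lower. Mean log2 values were higher in creatine-fed mice for 31 and lower for 32, where 41.5% of all genes were higher and 58.5% lower. Their median log2 difference was -0.01.

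Of the other adenylate kinases 2 were measured, both dim. Ak7, known from ciliated cells, read 32.7 ± 13.6 in creatine-fed mice and 45.9 ± 5.93 in untreated mice (log2 difference -0.38, unadjusted p = 0.0198, adjusted p = 0.324 by limma), and Ak8, also a gene of cilia, differed by 0.08. Among 10 other nucleoside mono- and diphosphate kinases none reached an unadjusted p under 0.05. Guk1, the guanylate kinase, read 663 ± 31.5 in creatine-fed mice and 660 ± 28.9 in untreated mice, and the nucleoside diphosphate kinase Nme1 read 1125 ± 106 in creatine-fed mice and 1061 ± 86.6 in untreated mice.

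Purine synthesis was covered by 14 genes, 5 with higher and 9 with lower means. Adsl, which acts in both purine synthesis and the return of IMP to AMP, read 104 ± 17.8 in creatine-fed mice and 121 ± 8.72 in untreated mice (log2 difference -0.20, unadjusted p = 0.0418, adjusted p = 0.398 by limma). The adenylosuccinate synthetases, which work in the same step series, differed by -0.01 for Adss1 and -0.09 for Adss2. Gmps, the GMP synthetase, had higher means at all 3 of its probe sets, reading 444 ± 30.0 in creatine-fed mice and 386 ± 48.2 in untreated mice at the brightest (0.20, unadjusted p = 0.0355, adjusted p = 0.381 by limma). Paics, an enzyme of the middle of the pathway, differed by -0.10 with groups that did not overlap, the one gene of the 63 to do so, where 0.649% of all genes did; of its 3 probe sets 1 was higher and 2 lower, and it was named after its values were seen.

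Salvage and breakdown were covered by 20 genes, 12 with higher and 8 with lower means. Gda, guanine deaminase, had higher means at all 3 of its probe sets, reading 1535 ± 144 in creatine-fed mice and 1325 ± 187 in untreated mice at the brightest (log2 difference 0.22, unadjusted p = 0.0431, adjusted p = 0.402 by limma). Uox, urate oxidase, chiefly a liver enzyme, was dim, at 23.2 ± 3.54 in creatine-fed mice and 31.4 ± 4.35 in untreated mice (-0.28, unadjusted p = 0.00391, adjusted p = 0.221 by limma). Differences were 0.03 for Aprt, the salvage enzyme for adenine, -0.04 for the nucleoside phosphorylase Pnp, -0.02 for the cytosolic nucleotidase Nt5c2 and 0.04 for the ectonucleotidase Nt5e. Adenosine deaminase, Ada, read 12.5 ± 5.61 in creatine-fed mice and 10.6 ± 2.70 in untreated mice, and Ampd1, the muscle AMP deaminase, 3.67 ± 2.88 in creatine-fed mice and 3.86 ± 5.40 in untreated mice, both far below the array medians.

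Adenosine transport, receptors and ectonucleotidases were covered by 10 genes, 3 with higher and 7 with lower means. A single adenosine receptor was among them, a dim one, and the other receptors of the list were not analysed here. Slc29a1, the equilibrative nucleoside transporter that carries adenosine across membranes, read 121 ± 9.43 in creatine-fed mice and 151 ± 21.0 in untreated mice at its only probe set (log2 difference -0.28, unadjusted p = 0.00718, adjusted p = 0.253 by limma). Among 7 mitochondrial carriers of adenine nucleotides none reached an unadjusted p under 0.05. The ADP/ATP carrier Slc25a4, the main form of brain, heart and muscle, read 4560 ± 192 in creatine-fed mice and 4827 ± 287 in untreated mice (-0.08), and its relative Slc25a5 read 2131 ± 105 in creatine-fed mice and 2127 ± 161 in untreated mice.

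**Figure D5:**
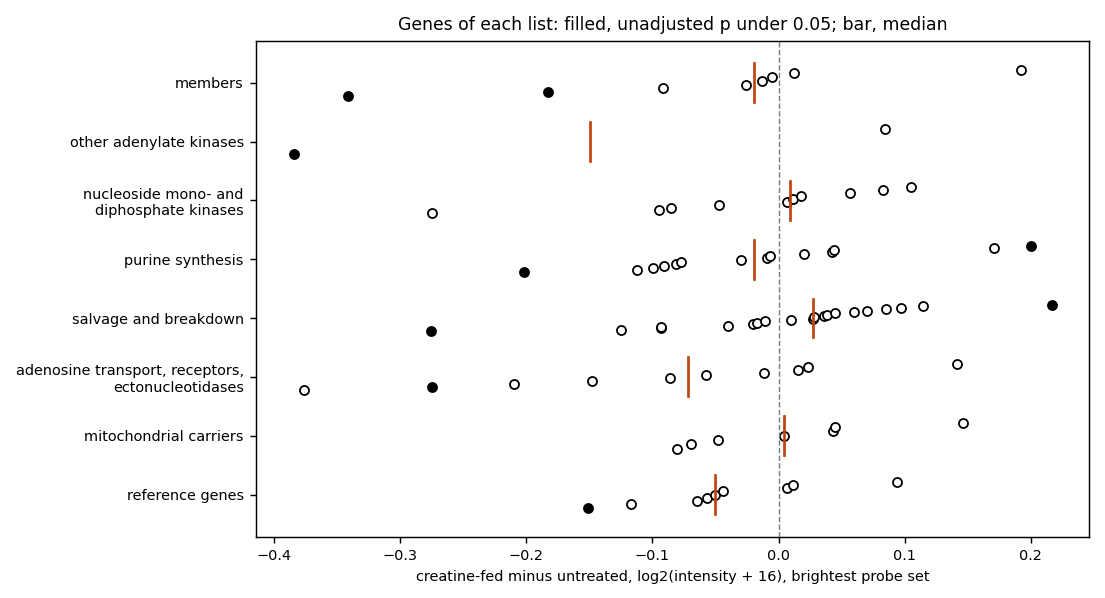
Difference between creatine-fed and untreated mice on the scale of log2(intensity + 16) (horizontal) at the brightest probe set of each gene, for the 8 members and the genes of each list (vertical); filled points have an unadjusted p under 0.05 and the orange bar is the median of the list. Medians lie between -0.15, for the 2 other adenylate kinases, and 0.03, for salvage and breakdown.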

How the data were processed

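Brain RNA of 13 mice, 3 µg each, was labelled and hybridised to Affymetrix arrays, 1 array per mouse, per the labels' protocols. The deposited values are linear intensities, whole numbers that reach 0, with no detection calls. RMA is the one tool named, per the submitters' processing notes, but the deposited values have the form of globally scaled signals: the mean after trimming 2% on each side was 150.05 on every array, and array medians ran from 37 to 45. How probes were summarised is therefore not known, and counts or depth do not apply to arrays.

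Here 64 control probe sets were set aside and 45037 were tested as log2(intensity + 16) with limma 3.58.1 in R 4.3.3 (Benjamini-Hochberg, threshold 0.05), with no covariate, since the labels name none. Gene names came from the platform annotation, updated by Entrez number: 34945 probe sets had 1 symbol, 932 several and 9160 none, and those without exactly 1 were not named. The brightest probe set by mean over the 13 arrays stood for a gene where a single value was needed. The brighter probe sets are those in the upper part of the array by that mean, 22516 in number. Named were every member, the preset genes of each list, list genes at an unadjusted p under 0.05, and the 2 genes most like each member. The members and lists were chosen with earlier results of these data known. Some genes of the lists were not analysed here.

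Correlations took out group means and were tested with 100000 permutations within groups (Python 3.11.15). On simulated intensities of 45037 probe sets, the fit recovered 44% of 100 planted log2 differences of 0.5 and 90% of 100 of 1, with 8 false calls among 142. The simulated noise was independent between probe sets, and the real arrays gave 4 calls, which makes the adjusted threshold stricter. Every planted difference was larger than any member difference, so these rates do not give the recovery of differences of member size. No arrays were near-copies: at most 5.68% of values were equal between any pair. Precision is limited by the number of arrays. The alternatives were offsets of 1 and 50, the brighter probe sets alone, quantile normalization, centring, a replicate block, a covariate for the 3′ to 5′ ratio of control transcripts, a trended robust variance, an exact permutation test, the mean of a gene's probe sets, and leaving out arrays.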

Additional observations from a re-analysis of the deposited data

Results flagged for a closer look

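Single mice stood far from the rest of their group at 5 of the 84 groups tested (42 probe sets, each in both groups), where chance gives about 1 in 20. At Ak1 1422184_a_at creatine-fed replicate 4 read 705, against 528 to 587 in the other creatine-fed mice. At Ak4 1450387_s_at untreated replicate 2 read 405, against 311 to 348 in the other untreated mice. At Ak4 1421829_at creatine-fed replicate 1 read 61, against 79 to 84 in the other creatine-fed mice. At Gmps 1455057_at creatine-fed replicate 4 read 386, against 440 to 470 in the other creatine-fed mice. At the dim Ampd1 1434722_at untreated replicate 4 read 16, against 1 to 3 in the other untreated mice.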

How the results depend on the processing

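No member probe set passed the threshold under 21 of 23 alternatives, nor at an adjusted p under 0.1. Ampd2 1438941_x_at was the 1 that passed among the brighter probe sets alone and the 1 that passed with a trended robust variance, at an unmoved difference of -0.34 in both. The count over all probe sets, 4, was 0 with an offset of 1, with the replicate block and by the exact permutation test, 36 with an offset of 50, 137 among the brighter probe sets, 2 with quantile normalization, 161 with a trended robust variance and 2 when the arrays that stood apart (replicate 2 of the creatine-fed and replicate 3 of the untreated mice) were dropped. It ran from 0 to 6 when single mice were left out: leaving out replicate 3 or 5 of the creatine-fed mice, or any of replicates 2 to 6 of the untreated mice, gave 0, and dropping replicate 7 of the untreated mice gave 2. Of 507 member differences under alternatives 472 kept their direction and side of the threshold and 33 changed sign, none of these past the threshold; 12 of the 22 member probe sets never changed sign. Centring takes a single value off each array, so it moved every difference by the same amount. Here that was upward, as from -0.026 to 0.026 at Ak1 1422184_a_at, since array medians were lower on average in creatine-fed mice. The cause of the other changes was not tested.

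With centring on array medians the differences were 0.026 for Ak1 1422184_a_at, 0.0084 for Ak3 1432436_a_at, 0.046 for Ak4 1450387_s_at, 0.035 for Ak4 1421830_at, 0.017 for Adk 1416319_at, 0.019 for Adk 1449641_at and 0.038 for Hprt. With quantile normalization they were -0.011 for Adk 1438292_x_at and 0.017 for Adk 1449641_at. When the arrays that stood apart were dropped they were 0.0030 for Ak1 1422184_a_at and -0.039 for Adk 1446675_at. With the mean of a gene's probe sets they were 0.054 for Ak4 and -0.025 for Adk. Leaving out single mice, the differences ran from -0.080 to 0.0014 for Ak1 1422184_a_at, from -0.11 to 0.00091 for Ak3 1432436_a_at, from -0.033 to 0.034 for Ak4 1450387_s_at, from -0.067 to 0.022 for Ak4 1421830_at, from -0.019 to 0.16 for Ak4 1421831_at, from -0.0066 to 0.040 for Adk 1438292_x_at, from -0.063 to 0.00032 for Adk 1416319_at, from -0.16 to 0.044 for Adk 1449641_at, from -0.0070 to 0.19 for Adk 1446675_at and from -0.030 to 0.0019 for Hprt.

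The difference between the Ampd2 probe sets passed with an offset of 50 (-0.46, adjusted p = 0.0406 by limma) and without creatine-fed replicate 2 (adjusted p = 0.0483 by limma), and ran from -0.56 to -0.44 when single mice were left out. At an unadjusted p under 0.05, centring gave 1 of the other nucleoside kinases and 1 purine synthesis gene, the mean of a gene's probe sets gave 2 genes of adenosine transport and 0 reference genes, and quantile normalization gave 2 reference genes. Deviations of mice of the same replicate number had r between -0.14 and 0.33, the latter for replicate 2. Untreated replicate 2 was also the closest match of creatine-fed replicate 2. So few mice cannot settle whether the numbers pair them. With the replicate block, which leaves untreated replicate 7 without a partner, the Ampd2 difference was -0.36 (adjusted p = 0.301 by limma), and the differences were 0.00091 for Ak3 1432436_a_at, -0.0041 for Adk 1438292_x_at and 0.0019 for Hprt.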
